A study of Mus musculus with 4 samples.

Results

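The interleukin-1 (IL-1) receptor family was compared between 2 fractions of CD4 T cells from the lamina propria of the mouse large intestine, one that expressed GFP from the Gpr15 locus and one that did not. In all, 18193 genes had a probe set with a single gene symbol. The family was taken as 9 genes chosen by function, with earlier results of these data known. The 9 were Il1r1, Il1rl1, Il1rl2, Il18r1, Il18rap, Il1rap, Il1r2, Il1rn and Sigirr. Of the 9, 8 were measured by 17 probe sets, and Il1rl1, the receptor for IL-33, is not analysed here. Each gene was read from its probe set of highest mean over the 4 arrays, and the other probe sets are given beside it.

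The mice were of a 129/B6 mixed strain and heterozygous for a GFP knock-in at Gpr15, so the GFP-negative controls carried the same allele. Gpr15 encodes a chemoattractant receptor of T cells that home to the large intestine. Cells were freed with collagenase and sorted by GFP, and each fraction gave 2 Affymetrix arrays, numbered replicate 1 and replicate 2. The series text once writes the GFP-negative cells as CD4-, whereas every sample label gives CD4+. The labels give neither the age nor the number of mice per sample, nor whether a sample pooled mice. P-values therefore measure only the spread between these samples, and the 2 arrays per group limit the precision.

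Receptors of this family share an extracellular part of immunoglobulin domains and, in most members, an intracellular Toll/IL-1 receptor (TIR) domain. A ligand binds its specific chain (Il1r1 for IL-1, Il1rl1 for IL-33, Il1rl2 for IL-36, Il18r1 for IL-18), an accessory chain joins (Il1rap, or Il18rap for IL-18), and the paired TIR domains recruit Myd88 and the Irak kinases and lead to NF-kB. Il1r2 is a decoy receptor without a TIR domain, Il1rn is a soluble antagonist that occupies Il1r1, and Sigirr is an inhibitory member. In T cells, Il1r1 is best known from Th17 cells, Il18r1 and Il18rap from Th1 cells, and the IL-33 and IL-18 receptors also from regulatory T cells of the gut.

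Gpr15 gave signals of 146 and 162 on the GFP-negative arrays, against 619 and 729 on the GFP-positive arrays, so the GFP-positive arrays were the higher ones, as sorted. The T cell genes Cd3e and Cd4 were present on every array, with lowest signals of 4717 and 501. Jchain of plasma cells was bright too, at 3852 and 4455 without GFP, against 6219 and 4093 with GFP. It made up most of the summed B and plasma cell markers, which were 4166 and 4872 without GFP, against 6864 and 4479 with GFP. The part of plasma cells in the family signals was not tested. Signals of Xist lay between 4172 and 4313 for replicate 1 and between 55.1 and 112 for replicate 2, so the 2 replicates were of different sex, and differences within each replicate number are given beside the pooled ones. Among the lineage factors, Foxp3 of regulatory T cells had mean signals of 74.4 and 456 in GFP-negative and GFP-positive cells, Gata3 of 1165 and 1891, and Tbx21 of Th1 cells of 144 and 41.0. In bulk samples, fewer cells that express a gene and less RNA per cell cannot be told apart.

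The family did not shift as a whole. IL-36 receptor transcript (Il1rl2) was lower in GFP-positive cells on 1 of its 2 probe sets, and IL-1 antagonist transcript (Il1rn) was higher. Il1r1 lay lower and the IL-18 receptor chains lay higher by smaller amounts, while Il1rap, Il1r2 and Sigirr differed by less than 0.3 on the log2 scale. At an adjusted p under 0.05, limma called 0 of the 8 measured members, beside 0.0326% of the 12252 genes tested, and with p left unadjusted, 2 members were higher and 1 lower at the same threshold, beside 10.2% and 4.37% of all tested genes. By size, 1 member was higher and 1 lower by at least 2-fold with groups that did not overlap, beside 3.4% and 1.31% of all tested genes (4.71% in either direction). The lower member in these counts was Il1rl2, which passed the dim filter, a signal of 27.3, only through its GFP-negative signals. Groups did not overlap for 4 members that were higher and 2 that were lower, beside 28.7% and 18.7% of all tested genes (47.4% in either direction). The median difference of the 8 members was 0.14, and that of all tested genes was 0.07. Differences are of log2(signal + 16), GFP-positive minus GFP-negative, which understates the change of dim genes, and an exact permutation test of 2 against 2 arrays cannot go below a two-sided p of 0.333.

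**Figure D1:**
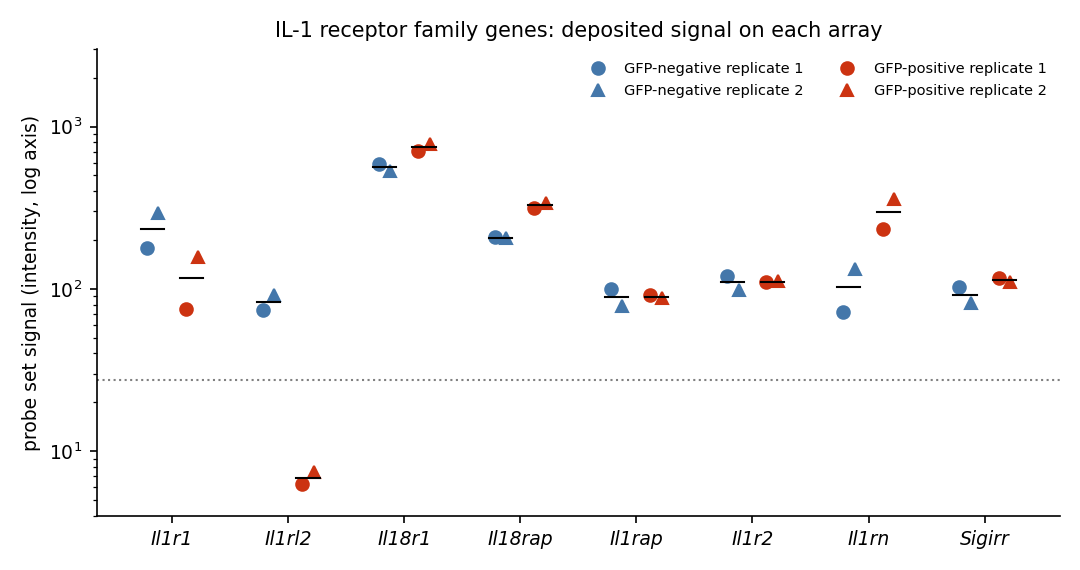
Deposited probe set signal (intensity, log axis) of the 8 measured family genes on each array, with blue for GFP-negative, red for GFP-positive, circles for replicate 1, triangles for replicate 2, black lines for group means and a dotted line at the dim filter of 27.3. Il1rl2 lies at 73.6 and 91.8 in GFP-negative cells and at 6.23 and 7.47 in GFP-positive cells, while the symbols of Il1rap and Il1r2 fall together.

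Among the signalling receptors, Il1rl2 differed the most. Its protein is the ligand-binding chain for the IL-36 cytokines. Its probe set 1434903_s_at gave signals of 73.6 and 91.8 on the GFP-negative arrays, against 6.23 and 7.47 on the GFP-positive arrays. Both GFP-positive arrays lay far below both GFP-negative arrays and under the dim filter, a signal of 27.3, so the transcript was near the bottom of the measured range there. The means were 82.7 ± 12.9 and 6.85 ± 0.876 (SD, n = 2 each), and the log2 difference was -2.11 (95% interval -2.65 to -1.56). Since no detection calls were used, the lower level has no measured floor, so the size of this difference depends on the pseudocount and is no exact fold. The difference was -2.01 within replicate 1 and -2.20 within replicate 2. By limma's p, Il1rl2 ranked 15 among 12252 genes (unadjusted p = 9.55e-05), and its adjusted p was 0.078. It passed the dim filter only through its GFP-negative signals, and without the filter limma's adjusted p was 0.277. The call depended on the variance model and the pseudocount, with limma adjusted p of 0.0198 with trend and robust settings and of 0.0245 with a pseudocount of 64, where the difference shrank to -1.05, and of up to 0.34 over the alternatives that tested it.

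A second probe set of Il1rl2, 1450273_at, did not show this. Its signals were 2.27 and 4.18 on the GFP-negative arrays and 7.33 and 13.1 on the GFP-positive arrays, all below the dim filter. The groups did not overlap in the other direction, with a log2 difference of 0.44. The lower Il1rl2 therefore rests on 1 probe set, and with the mean of both the gene was too dim to be tested.

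Il1r1, the signalling receptor for IL-1 alpha and IL-1 beta, also lay lower in GFP-positive cells. Its probe set 1448950_at gave signals of 179 and 292 on the GFP-negative arrays, against 75.3 and 158 on the GFP-positive arrays. The groups did not overlap, but the replicate 2 array was the higher one in each group, and the GFP-positive replicate 2 array came close to the GFP-negative replicate 1 array. The log2 difference was -0.96 (-1.93 to 0.01), with -1.09 and -0.83 within the replicate numbers and a limma adjusted p of 0.345. Its other probe set was dim, with a mean signal of 15.9 over the arrays, and differed by -0.57. Summed signals of 7 marker genes of stroma and endothelium, cell types that also express Il1r1, were 438 and 1037 on the GFP-negative arrays and 590 and 903 on the GFP-positive arrays, the higher value being that of replicate 2 in each group. Col1a1 was the brightest of the 7 on each array, at 114 and 546 against 243 and 419. Groups did not overlap for 0 genes that were higher and 2 that were lower, beside 28.7% and 18.7% of all tested genes. The 2 were Pecam1, at 112 and 94.0 against 50.0 and 77.4, and Kdr, which was below the dim filter. The part of these cell types in the Il1r1 signal was not tested.

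Il18r1, the ligand-binding chain of the IL-18 receptor, was well above the dim filter on every array. Its signals were 590 and 536 on the GFP-negative arrays and 708 and 786 on the GFP-positive arrays, from its only probe set, 1421628_at. Both GFP-positive arrays were above both GFP-negative arrays, by a log2 difference of 0.40 (-0.13 to 0.92) and with a limma adjusted p of 0.448. Scaling each array to a common median, which moved the median difference of all tested genes by -0.28, left a difference of 0.09.

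Il18rap, the accessory chain that completes the IL-18 receptor, went the same way as Il18r1. Its signals were 209 and 206 on the GFP-negative arrays and 317 and 338 on the GFP-positive arrays for the probe set 1456545_at. The 2 arrays of each group lay close together and the groups were clearly apart. The log2 difference was 0.62 (0.11 to 1.13), with 0.56 and 0.68 within the replicate numbers, an unadjusted p of 0.0248 and a limma adjusted p of 0.285. It was 0.32 under median scaling. The second probe set, 1421291_at, had signals of 136 and 122 against 221 and 216, a difference of 0.70, so both probe sets of Il18rap gave the same direction at well-measured levels.

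Il1rap, the accessory chain shared by the receptors for IL-1, IL-33 and IL-36, did not separate the groups on its brightest probe set. Signals of 1421844_at were 99.5 and 78.6 on the GFP-negative arrays and 91.0 and 87.5 on the GFP-positive arrays, so the groups overlapped. The log2 difference of 0.01 (-0.54 to 0.56) turned negative under quantile, cyclic loess and median scaling, to -0.26 at the farthest. Of its 4 dimmer probe sets, all below the filter, 3 were higher and 1 lower in GFP-positive cells. The farthest of them, 1442614_at, had signals of 6.62 and 7.25 against 40.3 and 38.8, a difference of 1.28 that the brightest probe set did not share.

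**Figure D2:**
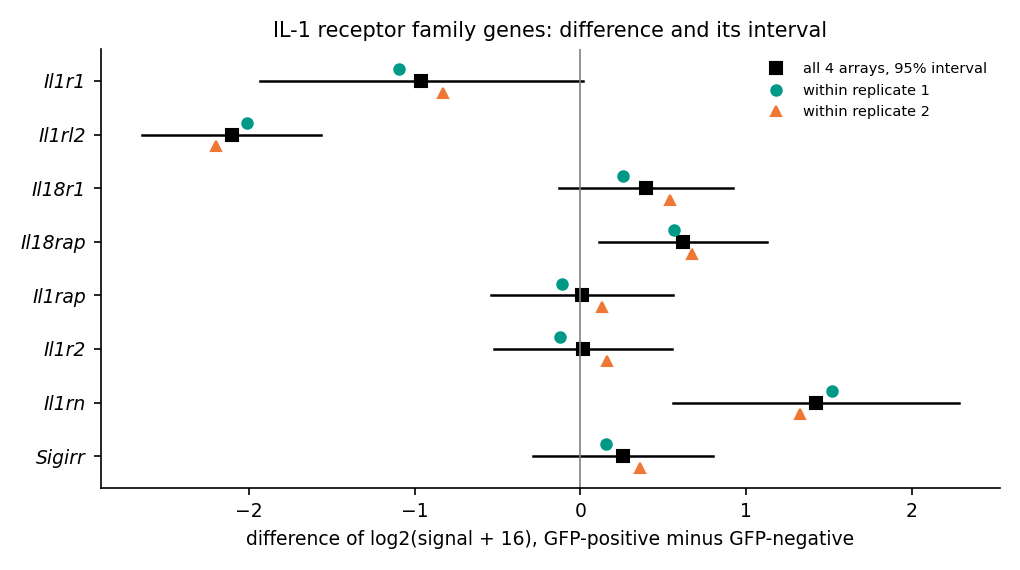
Difference of log2(signal + 16) between GFP-positive and GFP-negative cells for each measured family gene, with squares and bars for all 4 arrays and the 95% interval from limma, circles for the difference within replicate 1 and triangles within replicate 2. The intervals of Il1rl2, Il1rn and Il18rap leave out 0, at -2.65 to -1.56, 0.56 to 2.29 and 0.11 to 1.13, before any adjustment for the number of genes.

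The members that restrain signalling differed among themselves. Il1rn, which encodes the IL-1 receptor antagonist, was the member with the largest higher value. Its probe set 1451798_at gave signals of 71.6 and 133 on the GFP-negative arrays, against 235 and 358 on the GFP-positive arrays. The groups did not overlap, and within each group the replicate 2 array was the higher. The means were 102 ± 43.6 and 297 ± 86.6 (SD, n = 2 each), and the log2 difference was 1.42 (0.56 to 2.29), with 1.52 within replicate 1 and 1.32 within replicate 2. Il1rn ranked 90 among the higher genes by size, with an unadjusted p of 0.00713 and a limma adjusted p of 0.227, or 0.0466 with trend and robust settings, the lowest of a range up to 0.4 over the alternatives.

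The other probe sets of Il1rn gave both directions. 1425663_at had signals of 30.8 and 22.5 against 44.3 and 90.1, a difference of 0.91, while 1423017_a_at, which was below the dim filter, had 39.2 and 27.6 against 18.0 and 14.0, a difference of -0.62. With the mean of the 3 probe sets the difference was 0.57 (limma adjusted p = 0.314). Il1rn has several transcript starts in RefSeq, and which transcripts each probe set reads was not examined.

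Macrophages are a known source of Il1rn, and their transcripts varied between these arrays. Summed signals of 10 myeloid marker genes were 162 and 305 on the GFP-negative arrays, against 217 and 1339 on the GFP-positive arrays. In each group the sum was higher for replicate 2, as the Il1rn signal was. Of the 10 genes, 5 passed the dim filter. Counting dim ones too, groups did not overlap for 5 that were higher and 0 that were lower, beside 28.7% and 18.7% of all tested genes. No marker of that list was brighter than 85.0 except on the GFP-positive replicate 2 array, where C1qb reached 700.4, Csf1r 164 and Lyz2 146. Il1rn differed by 1.52 within replicate 1 and by 1.32 within replicate 2, and by 1.14 without the GFP-positive replicate 2 array. Neutrophil markers summed to 62.2 to 95.4 on the GFP-negative and 99.2 to 136 on the GFP-positive arrays, from 4 of 6 listed genes. Only 1 of the 4 passed the dim filter, and the groups overlapped for each of them. Dendritic cell markers gave sums of 209 and 188 without GFP, against 345 and 373 with GFP, from 4 of 5 listed genes. Of these, 3 passed the dim filter, and most of each sum was Zbtb46, at 135 and 119 against 220 and 278. Epithelial markers, all 7 with a probe set, gave sums of 387 and 452 without GFP, against 1517 and 426 with GFP, while Epcam among them read 72.3 and 42.5 against 246 and 175. The dendritic sums were thus higher on both GFP-positive arrays, and the epithelial sum on that of replicate 1. The part of these cell types in the Il1rn signal was not tested beyond these values.

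Il1r2, the decoy receptor, did not separate the groups either. Its signals were 121 and 98.7 on the GFP-negative arrays and 110 and 112 on the GFP-positive arrays, with both GFP-positive values between the GFP-negative ones. The log2 difference of 0.02 (-0.52 to 0.56) turned to -0.07, -0.05 and -0.26 under quantile, cyclic loess and median scaling. Sigirr, the inhibitory member, had signals of 102 and 82.0 against 116 and 110, so the groups did not overlap. Its difference of 0.26 (-0.28 to 0.80; limma adjusted p = 0.635) became -0.02 under median scaling.

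**Figure D3:**
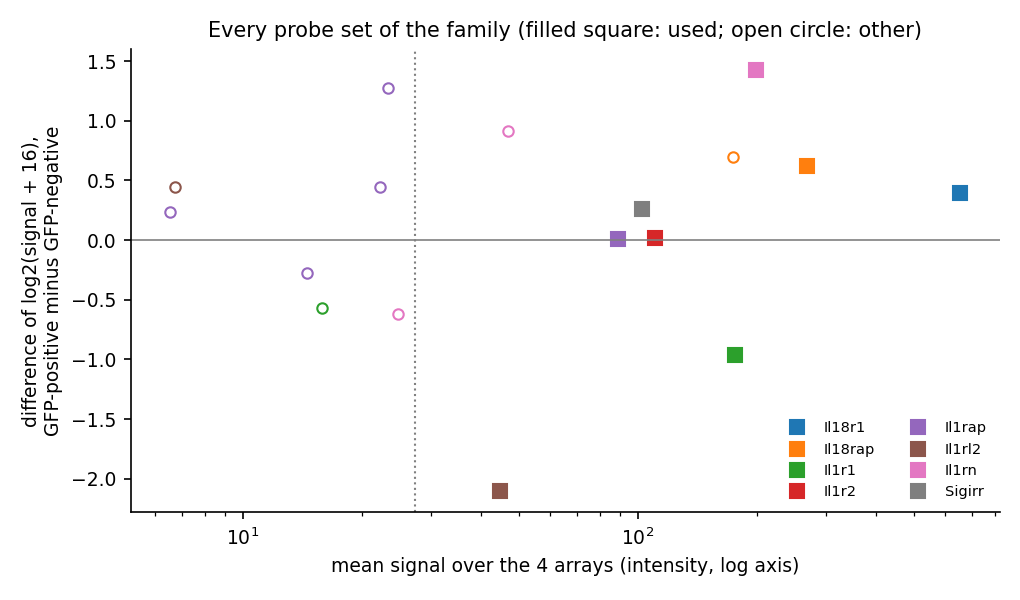
Difference of log2(signal + 16), GFP-positive minus GFP-negative, against the mean signal over the 4 arrays (intensity, log axis) for the 17 probe sets of the family, with filled squares for the 8 used and open circles for the 9 others, 1 colour per gene and a dotted line at the dim filter of 27.3. Of the 9 others, 7 are below the filter, 6 have the sign of the probe set used and 3 the opposite sign.

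Of the 8 measured members, 5 lie in 1 cluster with Il1rl1 on mouse chromosome 1, as ordered in the RefSeq annotation of GRCm38.p6. The protein-coding order there is Map4k4, Il1r2, Il1r1, Il1rl2, Il1rl1, Il18r1, Il18rap, Slc9a4, Slc9a2 and Mfsd9. Along this order Il1r2 differed by 0.02, Il1r1 by -0.96, Il1rl2 by -2.11, Il18r1 by 0.40 and Il18rap by 0.62. The lower members Il1r1 and Il1rl2 thus adjoined each other on one side of Il1rl1, and the higher members Il18r1 and Il18rap on the other side. Of these, Il1r1 (-1.93 to 0.01) and Il18r1 (-0.13 to 0.92) had intervals that included 0, and Il1rl2 was lower on 1 of its 2 probe sets. Outside the cluster, Map4k4, a kinase gene, gave signals of 1841 and 1949 on the GFP-negative arrays, against 1258 and 1332 on the GFP-positive arrays, a difference of -0.54 (-1.05 to -0.03; limma adjusted p = 0.326). Mfsd9 differed by 0.16, and the ion exchanger genes Slc9a4 and Slc9a2 were below the dim filter. These neighbours were chosen by position alone.

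**Figure D4:**
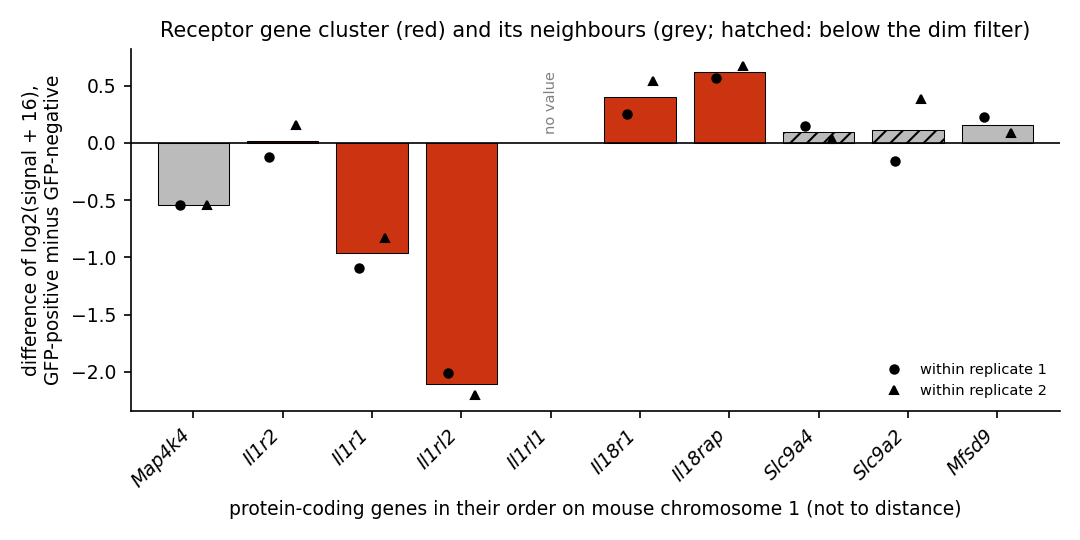
Difference of log2(signal + 16), GFP-positive minus GFP-negative, for the protein-coding genes around the receptor cluster in their order on mouse chromosome 1, with red bars for family genes, grey bars for neighbours, hatching for genes below the dim filter, circles for replicate 1 and triangles for replicate 2. Bars go down at Il1r1 (-0.96) and Il1rl2 (-2.11) and up at Il18r1 (0.40) and Il18rap (0.62).

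To set sequence beside these differences, the 250 bases before the transcript start are shown for Il1rl2, Il1rn and Il18rap, the members with an unadjusted p under 0.05. They are on the + strand of GRCm38.p6, from RefSeq, at chr1:40324339-40324588 for Il1rl2, chr2:24336610-24336859 for the upstream-most of the Il1rn starts and chr1:40515112-40515361 for Il18rap. Capitals mark matches, on either strand, to an AP-1 motif (TGANTCA), an NF-kB motif (GGNNNTTCC), a GATA motif (AGATAA), a forkhead motif (TGTTTAC) or a T-box motif (AGGTGTGA).
Il1rl2: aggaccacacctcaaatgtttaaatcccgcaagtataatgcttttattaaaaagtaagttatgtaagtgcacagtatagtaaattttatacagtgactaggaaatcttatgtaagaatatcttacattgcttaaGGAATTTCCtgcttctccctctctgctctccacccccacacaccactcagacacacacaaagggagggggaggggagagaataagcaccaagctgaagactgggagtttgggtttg
Il1rn: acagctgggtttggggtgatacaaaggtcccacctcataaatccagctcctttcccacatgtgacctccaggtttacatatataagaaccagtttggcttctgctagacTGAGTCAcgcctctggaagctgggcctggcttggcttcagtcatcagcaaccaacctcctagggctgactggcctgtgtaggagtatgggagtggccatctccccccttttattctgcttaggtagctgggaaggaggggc
Il18rap: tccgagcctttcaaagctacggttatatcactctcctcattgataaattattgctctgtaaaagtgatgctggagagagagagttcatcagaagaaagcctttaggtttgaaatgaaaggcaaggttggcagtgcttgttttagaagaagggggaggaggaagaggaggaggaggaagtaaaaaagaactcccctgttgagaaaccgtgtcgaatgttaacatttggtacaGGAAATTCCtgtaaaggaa
Il1rl2 and Il18rap, which differed in opposite directions, each held 1 NF-kB match, read on both strands, starting 116 bases before the start in Il1rl2 and 19 bases before it in Il18rap. Il1rn held 1 AP-1 match, 141 bases before this start. Another Il1rn window, not shown, held an NF-kB match 50 bases before its own start. Windows of Il1r1 and Il1r2 held NF-kB matches as well, 232 and 106 bases before their starts. Of 32851 promoter windows of the same length, 15.7% held the NF-kB motif and 6.75% the AP-1 motif, so the matches describe these letters and single out no factor. GATA, forkhead and T-box motifs were found in 9.99%, 3.17% and 1.12% of windows and in none of the 3 windows shown. Windows of the family were present for 8 genes, Il1rl1 included and Sigirr not, and 4 of the 8 had more than 1.

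The rest of the pathway was read from 35 listed genes, of which 29 had a probe set and 23 passed the dim filter. None of the 23 passed limma's adjusted threshold, while an unadjusted p under 0.05 was found for 4 higher and 1 lower, beside 10.2% and 4.37% of all tested genes. By size, 3 were higher by at least 2-fold with groups that did not overlap and 0 were lower, beside 3.4% and 1.31% of all tested genes. The 3 were Il1b, Irak2 and Tirap, and this count depended on the scaling. Under median scaling they differed by 0.89, 0.87 and 0.73, all less than 2-fold. Under quantile and cyclic loess normalization Irak2 stayed above 2-fold, at 1.07 and 1.09. Il1b (0.96 and 0.95) and Tirap (0.97 and 0.99) did not. Their median difference was 0.08, beside 0.07 for all tested genes.

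Ligand transcripts were dim. Il1b, the cytokine that Il1rn opposes at Il1r1, gave signals of 35.0 and 36.4 on the GFP-negative arrays, against 55.8 and 164 on the GFP-positive arrays, a difference of 1.13 (0.04 to 2.22; limma adjusted p = 0.335). The highest value was on the GFP-positive replicate 2 array, which had the highest myeloid sum, and without that array the difference was 0.47. Il18 had signals of 69.0 and 46.5 against 162 and 82.7, a difference of 0.86 (-0.00016 to 1.72; limma adjusted p = 0.343). Its highest value was on the GFP-positive replicate 1 array, where 7 epithelial marker genes summed to 1517, against 387 to 452 on the other arrays, and without that array the difference was 0.44. The part of myeloid or epithelial transcripts in these signals was not tested. Il1a, Il33, Il1f10 and Il18bp were below the dim filter, and the 4 listed IL-36 genes are not analysed here.

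Of the genes that process IL-1 beta and IL-18, Nlrp3, the sensor of an inflammasome, gave signals of 52.2 and 44.7 on the GFP-negative arrays, against 89.7 and 114 on the GFP-positive arrays. Its difference was 0.86 (0.30 to 1.43; limma adjusted p = 0.239). The adaptor Pycard differed by -0.36 (-0.99 to 0.28), and the proteases Casp1 and Casp4 were bright in both groups and differed by -0.26 and -0.07.

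Among the adaptors and kinases behind the receptors, Irak2 and Tirap differed the most. Irak2, a kinase-like protein of the receptor complex, gave signals of 67.0 and 76.6 on the GFP-negative arrays, against 166 and 191 on the GFP-positive arrays. The groups did not overlap, and the difference was 1.15 (0.62 to 1.68), with 1.14 and 1.16 within the replicate numbers and a limma adjusted p of 0.167, or 0.0434 with trend and robust settings, the lowest of a range up to 0.406 over the alternatives. Tirap, an adaptor of Toll-like receptors, had signals of 78.3 and 106 against 225 and 179, a difference of 1.02 (0.40 to 1.63; limma adjusted p = 0.226), while its other, dimmer probe set differed by -0.61.

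Of the other genes of this group, Myd88 and Ikbkb were named after their values were seen. Myd88, the central adaptor, gave signals of 58.5 and 87.7 on the GFP-negative arrays, against 53.7 and 61.4 on the GFP-positive arrays, a difference of -0.26 (-0.88 to 0.36) with overlapping groups. Ikbkb, a kinase that releases NF-kB, had signals of 967 and 1025 against 658 and 694, with groups that did not overlap and a difference of -0.55 (-1.06 to -0.04; limma adjusted p = 0.325). Tollip and Peli1 differed by -0.01 and -0.17, and Tollip turned positive under quantile and cyclic loess normalization.

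NF-kB feedback genes, which the pathway induces, were bright in both groups. Nfkbia gave signals of 5721 and 5511 on the GFP-negative arrays, against 6355 and 4898 on the GFP-positive arrays, and Nfkbiz and Tnfaip3 also overlapped between the groups. The differences of the 3 genes were -0.01, 0.08 and -0.03 on the probe sets used, with limma intervals no wider than -0.60 to 0.60. Each changed sign under at least 1 other scaling. Under median scaling all 3 were lower without overlap, at -0.33, -0.24 and -0.34. Under quantile and cyclic loess normalization all 3 were positive. Their other probe sets differed by -0.09, 0.01, -0.20 and 0.11 for Nfkbia, by -0.40 and 0.13 for Nfkbiz and by -0.50 for Tnfaip3. The lower one of Nfkbiz was bright, at 3887 and 3839 without GFP, against 3287 and 2611 with GFP. The orphan receptor gene Il1rapl1 differed by -0.16 (-0.70 to 0.37).

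**Figure D5:**
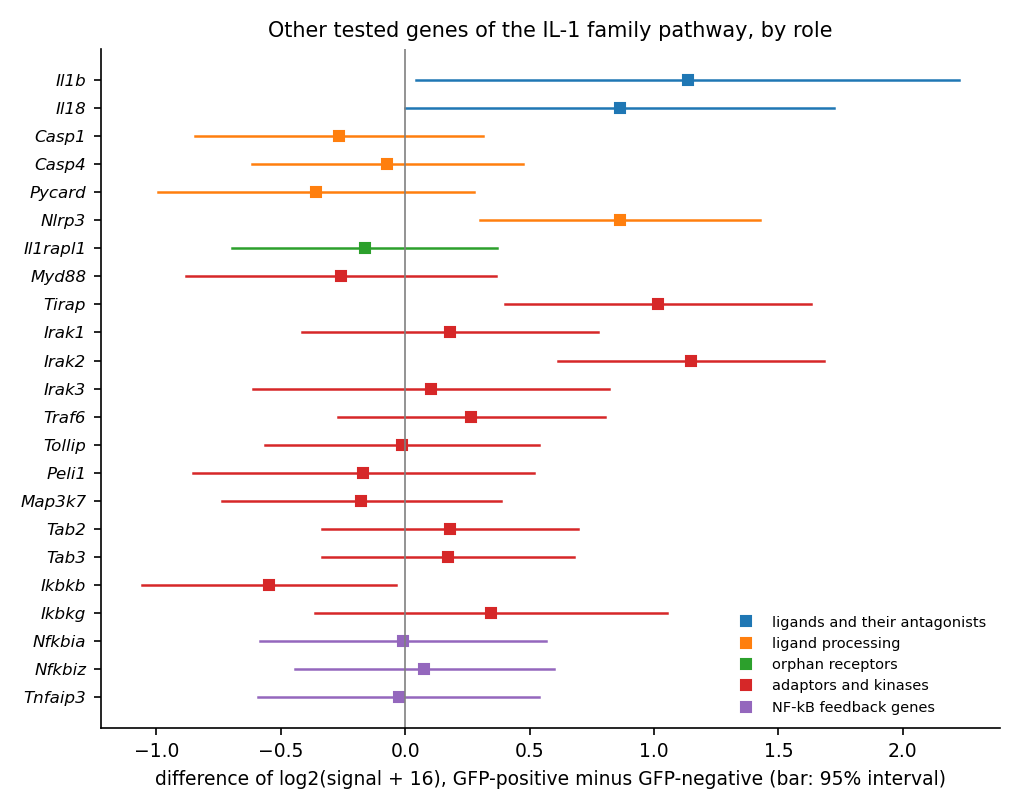
Difference of log2(signal + 16), GFP-positive minus GFP-negative, with its 95% interval from limma for the 23 tested genes of the IL-1 family pathway other than the receptors, coloured by role. The intervals of Il1b, Nlrp3, Tirap and Irak2 lie above 0 and that of Ikbkb below it, before adjustment. The 3 NF-kB feedback genes lie at -0.03 to 0.08 on the probe sets used.

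The genes whose 4 centred log2 values lay nearest to those of Il1rl2 were Hs3st3b1, a heparan sulfate sulfotransferase gene, Chn2 and Rflnb, at distances of 0.184, 0.359 and 0.407. Hs3st3b1 gave signals of 1005 and 1064 on the GFP-negative arrays, against 204 and 247 on the GFP-positive arrays. For Il1rn the nearest were Gjb2, a connexin gene, Mirg and Smarca1, at distances of 0.111, 0.14 and 0.171. Gjb2 had signals of 240 and 393 against 645 and 996, with the replicate 2 array higher in each group, as for Il1rn. The distances are Euclidean on the log2 scale over 4 arrays, which is few, and describe likeness only.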

How the data were processed

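Total RNA of sorted cells was biotin-labelled and hybridised to Affymetrix arrays, per the labels. The authors deposited linear intensities, 1 per probe set and array, and the software that made them is not given in the sources used here. The mean intensity, trimmed by 2% at each end, was 150.0 on all 4 deposited arrays. Medians were 37 and 36.1 on the GFP-negative arrays and 46.0 and 45.2 on the GFP-positive arrays. They thus split by group, and differences under median scaling are given among the alternatives. Scaling by 1 factor leaves array-wide bends in place. No detection calls were used.

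Of 45101 probe sets, 34958 had 1 gene symbol in the platform annotation, which can be old, 932 had several and 9211 none. Each gene was read from its probe set of highest mean log2(signal + 16), without the 64 controls. The 12252 of 18193 genes above the 40th percentile (a signal of 27.3) were tested two-sided with limma 3.58.1 in R 4.3.3, in a model of the group alone, with Benjamini-Hochberg adjustment over all of them, with 2 residual and 3.74 prior degrees of freedom. The fit was tested on simulated data. Named genes were all members, for the pathway the 2 largest differences and the 2 brightest genes of each role, the sort and lineage genes, and the 3 nearest patterns of members at least 2-fold apart. The members and lists were chosen with earlier results of these data known. Alternatives covered pseudocounts, filter, normalization, probe sets, replicate block, variance model and each array left out.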

Additional observations from a re-analysis of the deposited data

Results flagged for a closer look

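Il1rap and Il1r2 had differences of opposite sign within the replicate numbers. On the log2(signal + 16) scale, GFP-positive minus GFP-negative, Il1rap differed by -0.11 within replicate 1 and by 0.13 within replicate 2, and Il1r2 by -0.12 and 0.16. Whether the effect differs between the replicates, which also differ in sex, was not tested, since each number holds 1 array per group.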

How the results depend on the processing

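With 14 alternatives, 1 of them (probe set and filter chosen on mean signals) added after seeing the data, Il18r1, Il18rap, Il1r1 and Il1rn kept their direction in all 14, and Il1rl2 in the 12 that tested it, being too dim with a pseudocount of 1 or the mean of probe sets. Limma called 0 members in 12 of 14, 1 with a pseudocount of 64 and 2 with trend and robust settings. With all 4 arrays, members at least 2-fold apart with groups that did not overlap were 2, but 3 under median scaling and 0 for the mean of probe sets. Trend and robust settings called 1 pathway gene. Genes called over all tested were 4, 174 with a pseudocount of 64, 240 with trend and robust settings, 6 under median scaling or the mean of probe sets, and 0 elsewhere, including the replicate block and each array left out. The cause was not tested. Higher and lower genes at least 2-fold apart with groups that did not overlap numbered 416 and 161, against 162 and 409 under median scaling, 263 and 199 under quantile and 259 and 202 under cyclic loess normalization.

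Reversed signs were those of Il1r2 (-0.070 under quantile, -0.047 under cyclic loess and -0.26 under median scaling), Il1rap (-0.11, -0.10 and -0.26) and Sigirr (-0.017 under median scaling). Without 1 array, Il1r2 ran from -0.11 to 0.14, Il1rap from -0.13 to 0.15, Il1r1 from -1.42 to -0.50, Il1rn from 1.04 to 1.81 and Il1rl2 from -2.24 to -1.97. Without the GFP-positive replicate 1 array Il1rap was -0.01, and without the GFP-negative replicate 2 array Il1rap was -0.13 and Il1r2 -0.11. Deviations of same-numbered arrays correlated at 0.198 across genes, and the labels do not pair them. With the replicate block, limma called 0 members (adjusted p of 0.0904 for Il1rl2 and 0.126 for Il1rn). Dim signals limit Il1rl2 in GFP-positive cells and most second probe sets.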
